A study of Homo sapiens with 26 samples.

Results

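The cytochrome P450 genes form a family of haem enzymes that insert an oxygen atom into their substrates. Some members oxidise drugs and other foreign compounds, and others make or clear bile acids, steroid hormones, retinoic acid, vitamin D and fatty acid derivatives. Many of them are expressed mainly in the liver, where the forkhead factor FOXA1 and the nuclear receptor HNF4A are known regulators. The members described here are the autosomal protein-coding genes of GENCODE 44 (lifted to GRCh37) whose symbol is CYP followed by a family number, a subfamily letter and a gene number. There were 56 of them among 19229 autosomal protein-coding genes.

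The study expressed HALO-tagged factors in BJ cells, a line of human foreskin fibroblasts, and mapped where they sat on chromatin by ChIP-seq against the tag after 48 hours of ectopic expression. There were 5 constructs, which the labels name FOXA1, FOXA1dbd, FOXA1nhaa, FOXA1rraa and HNF4A; the labels used here do not spell out the changes in the 3 FOXA1 variants. All constructs share the cell line, the tag, the antibody and the time, so every factor was an introduced protein in cells of 1 line. The labels list 2 ChIP libraries per construct, of which there is 1 full peak list, so nothing below has a replicate check and no test was made. Expression was not measured in the files used here, so neither the cell identity nor the activity of the P450 genes could be checked.

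A member's window was its gene body and 20 kb on either side. The 56 windows had a median length of 61.9 kb (43.3 to 251 kb), against 67.6 kb over all autosomal protein-coding genes. Several P450 genes lie in clusters, and 25 members shared a locus with another member, so the windows joined to 42 loci covering 3.71 Mb. Members of a cluster that share a peak are not independent observations. The full lists held 155652 FOXA1, 28831 FOXA1dbd, 105591 FOXA1nhaa, 71202 FOXA1rraa and 38291 HNF4A peaks. They give no read counts, so the depth behind each list is unknown. The lists were also not independent in their rows. Of the 71202 FOXA1rraa rows, 23216 were rows of the FOXA1 list and 41253 were rows of the FOXA1nhaa list, with the same coordinates and peak names, and 6733 were its own. Near the P450 genes these classes held 18, 23 and 10 of the 51 FOXA1rraa peaks. There, 2 FOXA1dbd peaks also had the coordinates of a FOXA1 row, and several others shared a start or an end with one. Overlaps between FOXA1dbd and FOXA1 are therefore not shown to come from separate peak calls. The main FOXA1rraa counts and its overlaps with FOXA1 are therefore given with and without shared rows. Its other values, such as densities, percentiles and motif shares, are given with these rows only. Over the whole list, 41253 FOXA1rraa peaks overlapped a FOXA1nhaa peak, the same number as its rows of the FOXA1nhaa list. Leaving out shared rows thus also leaves out shared sites, so values without them do not measure the binding of FOXA1rraa.

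The sequences that follow show the sites on which the later sections turn. Each is the central 200 bases of a peak, read from the plus strand of GRCh37. Capitals in the first 5 mark the letters searched for on both strands, which were TGTTTAC or TATTTAC for forkhead factors and CAAAGTCCA for HNF4 factors. These are the highest-ranked peaks of their lists near a P450 gene that hold such a core, by a rule stated with the processing. The FOXA1 site lies in an intron of CYP39A1 at chr6:46528739-46528938, the FOXA1dbd site downstream of CYP2W1 at chr7:1038611-1038810, and the FOXA1nhaa site upstream of CYP2R1 at chr11:14929767-14929966. The FOXA1rraa choice fell on the same CYP2W1 site, where its peak is a row of the FOXA1 list. For HNF4A the forkhead core lies upstream of CYP2A7 at chr19:41403162-41403361 and the HNF4 core upstream of CYP26B1 at chr2:72378749-72378948.
CYP39A1 intron, FOXA1: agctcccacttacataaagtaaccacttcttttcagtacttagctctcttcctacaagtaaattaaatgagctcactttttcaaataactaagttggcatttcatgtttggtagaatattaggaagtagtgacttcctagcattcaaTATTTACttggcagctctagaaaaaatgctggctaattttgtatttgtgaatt
CYP2W1 downstream, FOXA1dbd: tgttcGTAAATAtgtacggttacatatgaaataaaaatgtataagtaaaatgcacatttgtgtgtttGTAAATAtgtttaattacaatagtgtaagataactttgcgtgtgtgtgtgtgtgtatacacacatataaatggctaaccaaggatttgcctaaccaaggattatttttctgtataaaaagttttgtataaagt
CYP2R1 upstream, FOXA1nhaa: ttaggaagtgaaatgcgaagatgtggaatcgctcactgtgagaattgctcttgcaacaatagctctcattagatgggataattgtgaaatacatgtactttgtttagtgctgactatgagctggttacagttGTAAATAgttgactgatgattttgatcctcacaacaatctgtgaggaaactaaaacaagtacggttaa
CYP2A7 upstream, HNF4A: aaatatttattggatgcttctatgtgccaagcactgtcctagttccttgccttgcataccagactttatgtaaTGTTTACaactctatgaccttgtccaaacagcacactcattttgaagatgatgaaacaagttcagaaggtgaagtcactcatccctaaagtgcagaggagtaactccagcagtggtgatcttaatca
CYP26B1 upstream, HNF4A: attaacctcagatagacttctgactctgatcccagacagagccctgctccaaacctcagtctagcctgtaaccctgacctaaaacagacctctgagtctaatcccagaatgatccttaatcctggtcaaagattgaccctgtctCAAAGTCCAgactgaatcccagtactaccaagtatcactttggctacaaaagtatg

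A further pair of sequences, chosen after their values were seen, shows the highest-ranked FOXA1 peak in any P450 window and the highest-ranked HNF4A peak at a P450 start. The FOXA1 peak is in the gene AXL, in the downstream flank of CYP2S1, at chr19:41731472-41731671. It held no forkhead core, and its capitals mark the AP-1 core TGANTCA, which reads the same on both strands. The HNF4A peak, at chr11:14913189-14914051, covers the start of CYP2R1 at chr11:14913777. The bases printed from it, at chr11:14913250-14913449, lie inside the gene and do not hold the start itself. Their capitals mark the 19 CG dinucleotides.
AXL near CYP2S1, FOXA1: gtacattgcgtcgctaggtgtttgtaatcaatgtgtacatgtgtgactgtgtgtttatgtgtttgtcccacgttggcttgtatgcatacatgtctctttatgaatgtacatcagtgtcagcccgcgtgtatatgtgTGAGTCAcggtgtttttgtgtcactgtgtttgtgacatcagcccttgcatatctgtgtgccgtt
CYP2R1 start, HNF4A: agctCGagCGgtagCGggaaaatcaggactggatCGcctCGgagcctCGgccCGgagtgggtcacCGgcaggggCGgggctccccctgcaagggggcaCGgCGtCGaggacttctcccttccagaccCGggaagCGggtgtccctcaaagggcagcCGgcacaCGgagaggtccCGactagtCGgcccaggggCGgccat

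Most P450 genes had a FOXA1 peak in their window, but in every list the share was lower than over all genes. FOXA1 peaks lay in the windows of 37 of the 56 members, or 66.1% (95% Wilson interval 53.0 to 77.1), against 77.2% of all genes. The upper bound for FOXA1 lies just under the background. FOXA1nhaa peaks lay in 29 windows, or 51.8% (39.0 to 64.3), against 70.8%. FOXA1rraa peaks lay in 23 windows, or 41.1% (29.2 to 54.1), against 62.9%. Without the rows of the FOXA1 list this was 19 windows, or 33.9% against 54.7%, and with the own rows of FOXA1rraa alone it was 9 windows, or 16.1% against 19.1%, which is near the background. FOXA1dbd peaks lay in 15 windows, or 26.8% (17.0 to 39.6), against 47.2%. HNF4A peaks lay in 26 windows, or 46.4% (34.0 to 59.3), against 77.4%. Intervals here and below cover counting error only, and they treat clustered members as separate. Counted by locus, 29 of the 42 loci held a FOXA1 peak, 14 a FOXA1dbd peak, 25 a FOXA1nhaa peak, 22 a FOXA1rraa peak and 23 an HNF4A peak. Loci were not counted over all genes, so these counts have no background. Whether the gap to all genes holds by locus was not tested.

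**Figure D1:**
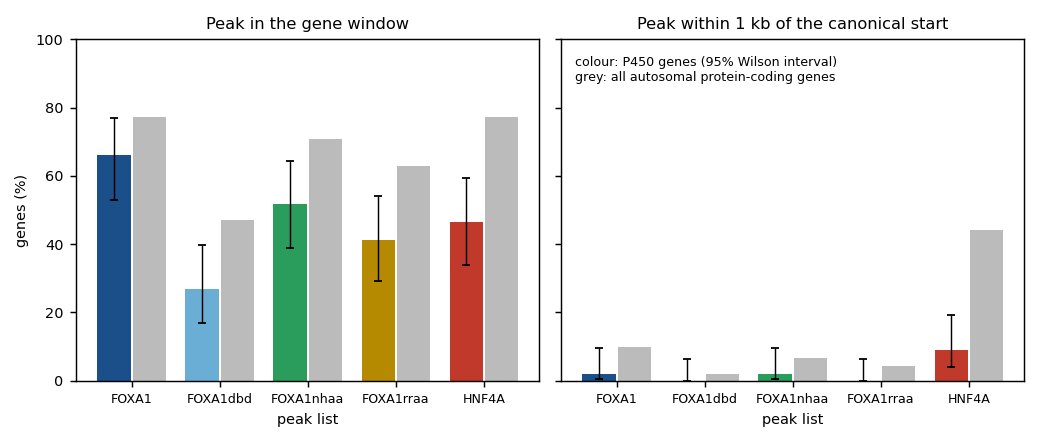
Share of genes (%) with a peak in the window (left) and within 1 kb of the canonical transcript start (right), for each peak list. Coloured bars are the 56 P450 genes with 95% Wilson intervals and grey bars are all 19229 autosomal protein-coding genes; the coloured bar is lower than the grey bar in every list, with HNF4A at 46.4% against 77.4% in the window and 8.93% against 44.0% at the start.

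The gap to the background differed with window length. Among the 24 members with windows under 60 kb, 13 had a FOXA1 peak (54.2%, against 61.4% of genes in that class), 3 a FOXA1dbd peak (12.5%, against 25.8%), 12 a FOXA1nhaa peak (against 51.6%), 8 a FOXA1rraa peak (33.3%, against 41.5%) and 10 an HNF4A peak (41.7%, against 69.5%). In these short windows FOXA1nhaa was thus close to the background and HNF4A was not. Among the 18 members with windows of 60 to 80 kb the counts were 15 (against 81.5%), 4 (22.2%, against 43.3%), 8 (44.4%, against 71.9%), 8 (44.4%, against 64.0%) and 9 (against 80.3%) in the same order, with FOXA1 at 83.3%. Among the 14 with windows over 80 kb they were 9 (64.3%, against 91.8%), 8 (57.1%, against 71.3%), 9 (64.3%, against 90.3%), 7 (against 84.6%) and 7 (against 84.1%). These classes were chosen after the data were seen.

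Peaks were also sparser per length of window. The joined P450 windows held 119 FOXA1 peaks, or 32.1 per Mb, against 73.8 per Mb over all protein-coding windows. The densities were 22.6 against 49.1 for FOXA1nhaa, 13.8 against 34.1 for FOXA1rraa, 6.74 against 13.2 for FOXA1dbd and 14.3 against 20.1 for HNF4A, with 84, 51, 25 and 53 peaks. Of the 51 FOXA1rraa peaks, 18 were rows of the FOXA1 list and 23 of the FOXA1nhaa list. The FOXA1rraa density and percentile given here mostly rest on those rows. The peaks in P450 windows were of ordinary rank. Their median percentile within their own list, by the authors' score for FOXA1 and the −log10 q-value elsewhere, was 43.4 for FOXA1, 42.7 for its dbd variant, 46.7 for FOXA1nhaa, 43.1 for FOXA1rraa and 53.3 for HNF4A.

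A total of 44 members had a peak in at least 1 list, or 78.6% against 93.0% of all genes, and 10 had a peak in all 5 lists, or 17.9% against 36.7%. The 10 were CYP2E1, CYP2R1, CYP19A1, CYP2S1, CYP27C1, CYP20A1, CYP24A1, CYP39A1, CYP51A1 and CYP3A43. Of these, only CYP19A1, CYP20A1, CYP24A1 and CYP39A1 had an own row of FOXA1rraa. At the others every FOXA1rraa peak was a row of the FOXA1 or FOXA1nhaa list. With CYP2U1, 11 members had a peak in all 4 FOXA1 lists, or 19.6% against 42.3%. Only CYP26B1 and CYP2F1 had an HNF4A peak and no FOXA1 peak of any kind, or 3.57% against 10.4%. The opposite pattern, a peak in a FOXA1 list and none for HNF4A, was found in 18 members, or 32.1% against 15.6%. The remaining 12 members, or 21.4% against 7.02%, had no peak in any list. They include CYP4B1, CYP4A11, CYP2C8, CYP4F2, CYP4F11, CYP4F22, CYP2A13, CYP2D6, CYP2D7, CYP11B1 and CYP11B2. Several of these are close copies of a neighbouring gene or pseudogene, as CYP2D6 and CYP2D7 or CYP11B1 and CYP11B2 are. Reads from near-identical copies cannot always be placed, so counts of 0 there are uncertain.

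**Figure D2:**
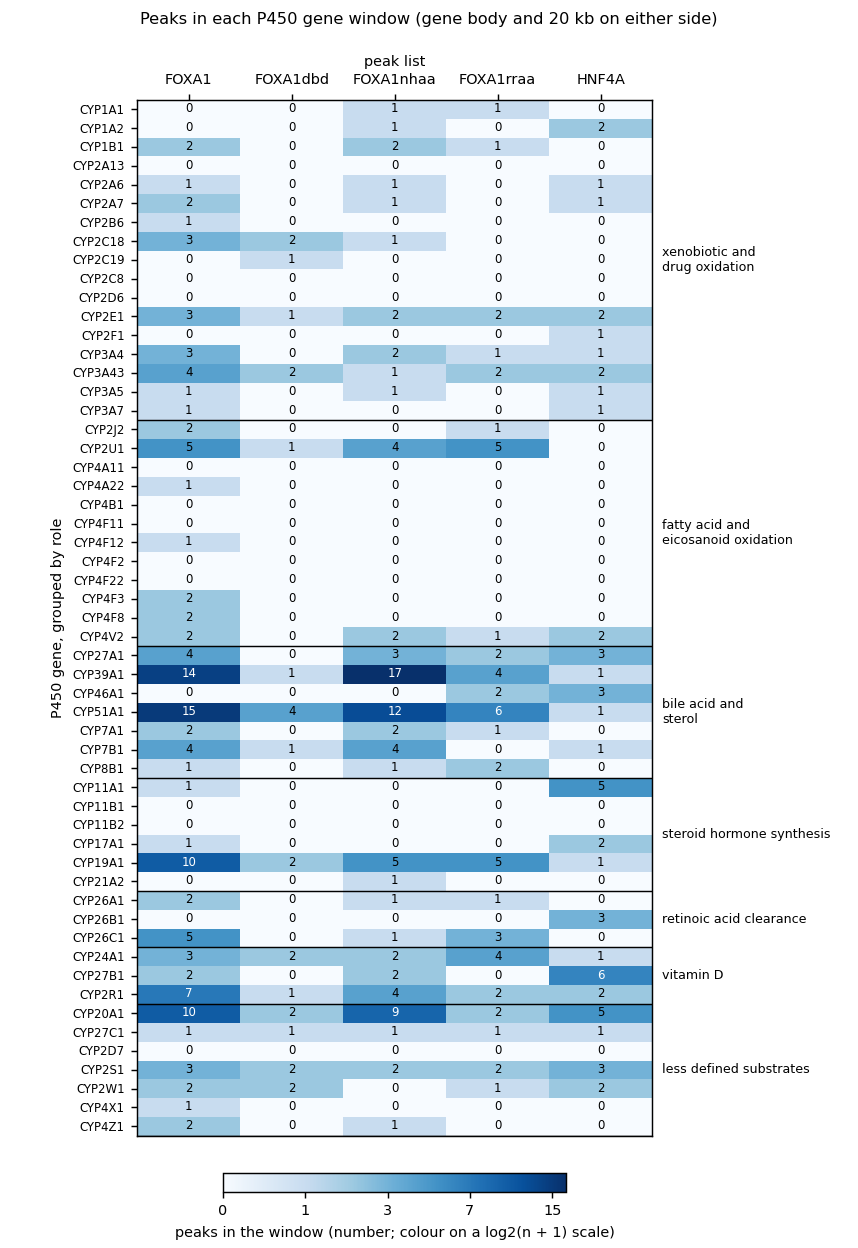
Number of peaks in the windows of the P450 genes (rows, grouped by role) in each of the 5 peak lists (columns), with colour on a log2 scale. FOXA1 and FOXA1nhaa peaks are most numerous at CYP39A1 (14 and 17, in a window of 143 kb) and CYP51A1 (15 and 12, in 89.8 kb). The median window is 61.9 kb, and counts are not scaled by window length. The CYP4F rows are at 0 outside the FOXA1 list.

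Of the 18 enzymes of xenobiotic and drug oxidation, FOXA1 and FOXA1nhaa peaks lay near 10 each (55.6%, against 77.2% and 70.8% of all genes). FOXA1dbd peaks lay near 4 (22.2%, against 47.2%), FOXA1rraa near 5 (27.8%, against 62.9%) and HNF4A near 9 (against 77.4%). Their windows held 17.5 FOXA1 peaks per Mb, against 73.8. CYP3A43, a minor member of the CYP3A cluster, had 4 FOXA1 peaks, 1 FOXA1nhaa, 2 FOXA1rraa, 2 HNF4A and 2 FOXA1dbd peaks. The FOXA1dbd pair shares its start, score and fold, so it covers 1 site. CYP3A4, the main drug-oxidising P450 of the liver, had 3 FOXA1, 2 FOXA1nhaa, 1 FOXA1rraa and 1 HNF4A peaks. CYP2E1, which oxidises ethanol and small solvents, had peaks in all lists, with 3, 1, 2, 2 and 2 for FOXA1, FOXA1dbd, FOXA1nhaa, FOXA1rraa and HNF4A. Its highest FOXA1 peak (score 315, rank 11639) lay 15.4 kb upstream, inside the neighbouring gene SCART1. In the CYP2C cluster, CYP2C18 had 3 FOXA1, 2 FOXA1dbd and 1 FOXA1nhaa peaks, CYP2C19 a single FOXA1dbd peak, and CYP2C8 none. CYP1A2, which oxidises caffeine, had no FOXA1 peak but 2 HNF4A peaks and 1 FOXA1nhaa peak, which its window shares with that of CYP1A1. CYP1A1 and CYP1B1, which are induced by aryl hydrocarbons, had no HNF4A peak, and CYP1B1 had 2 FOXA1, 2 FOXA1nhaa and 1 FOXA1rraa peaks, while CYP1A1 had 1 FOXA1nhaa and 1 FOXA1rraa peak. The stronger HNF4A peak of CYP1A2 lay in an intron 3.75 kb from the start (score 315, fold enrichment 12.2, rank 3524). CYP3A5 and CYP2A6 each had 1 FOXA1, 1 FOXA1nhaa and 1 HNF4A peak, CYP2A7 had 2, 1 and 1 of these, and CYP3A7 had 1 FOXA1 and 1 HNF4A peak. CYP2B6 had a single FOXA1 peak and CYP2F1 a single HNF4A peak.

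Of the 12 fatty acid and eicosanoid oxidases, FOXA1 peaks lay near 7 (58.3%, against 77.2% of all genes), FOXA1rraa near 3 (against 62.9%) and FOXA1nhaa near 2 (16.7%, against 70.8%). FOXA1dbd and HNF4A peaks lay near 1 each (8.33%, against 47.2% and 77.4%). The windows held 18.4 FOXA1 peaks per Mb, against 73.8, and 2.83 HNF4A peaks per Mb, against 20.1. The CYP4F genes, which hydroxylate leukotrienes and long-chain fatty acids, had 3 distinct FOXA1 peaks around CYP4F8, CYP4F3 and CYP4F12 and no peak of another construct. CYP2U1, a fatty acid hydroxylase, had 5 FOXA1, 1 FOXA1dbd, 4 FOXA1nhaa and 5 FOXA1rraa peaks and no HNF4A peak. Of its 5 FOXA1rraa peaks, 3 were rows of the FOXA1nhaa list, 1 a row of the FOXA1 list and 1 its own. CYP2J2, which makes epoxides of arachidonic acid, had 2 FOXA1 and 1 FOXA1rraa peaks, and CYP4A22 a single FOXA1 peak. CYP4V2, an ocular fatty acid hydroxylase, had 2 FOXA1, 2 FOXA1nhaa and 1 FOXA1rraa peaks and the only HNF4A peaks of the group, both at its start.

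The windows of the 7 bile acid and sterol enzymes held 40 FOXA1 peaks. At 53.3 per Mb this was under the 73.8 of all protein-coding windows. Of the 40, 29 lay near CYP39A1 and CYP51A1, whose windows of 143 and 89.8 kb exceed the member median of 61.9 kb. FOXA1, FOXA1nhaa and FOXA1rraa peaks lay near 6 of the 7 (85.7%, against 77.2%, 70.8% and 62.9% of all genes), FOXA1dbd near 3 (42.9%, against 47.2%) and HNF4A near 5 (71.4%, against 77.4%). CYP51A1, which removes a methyl group from lanosterol on the way to cholesterol, had 15 FOXA1, 4 FOXA1dbd, 12 FOXA1nhaa, 6 FOXA1rraa and 1 HNF4A peaks. Many of these also lie in AKAP9, a neighbouring gene that overlaps its annotated body and held 10 FOXA1 peaks of the P450 windows. The highest (score 590, rank 556) was at chr7:91709947-91710574, 53.5 kb from the canonical start. CYP39A1, an oxysterol hydroxylase, had 14 FOXA1, 1 FOXA1dbd, 17 FOXA1nhaa, 4 FOXA1rraa and 1 HNF4A peaks. Its strongest FOXA1nhaa peak (fold enrichment 14.5, −log10 q-value 36.7, rank 600) lay in an intron at chr6:46611313-46612004. It was the highest FOXA1nhaa peak near any P450 gene.

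**Figure D3:**
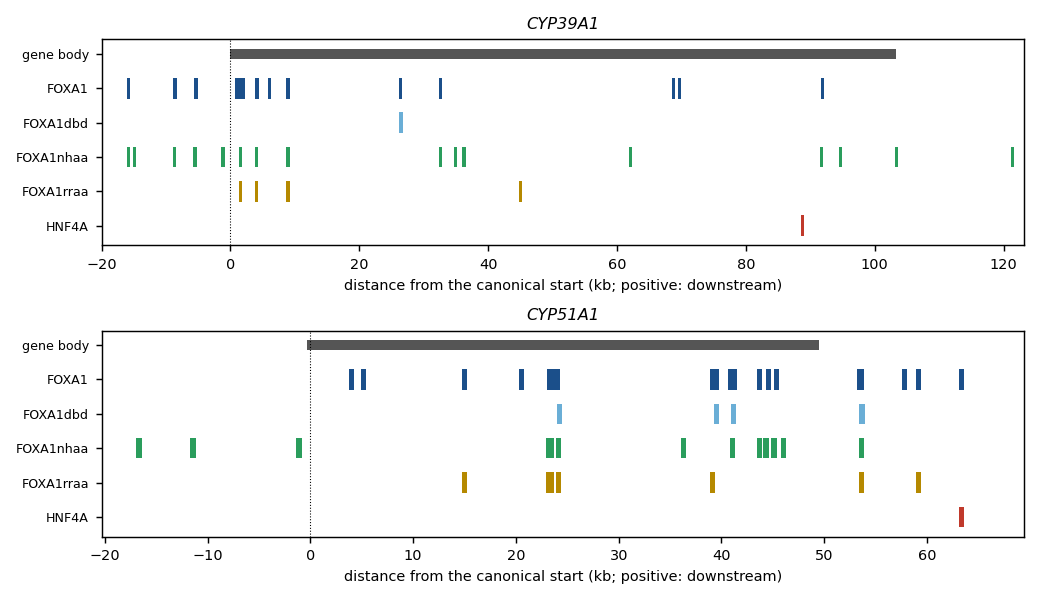
Positions of peaks in the windows of CYP39A1 (top) and CYP51A1 (bottom), in kb from the canonical transcript start with positive values downstream; each row is a peak list, each block a peak (drawn at least 0.5 kb wide), and the grey bar the annotated gene body. CYP39A1 carries 14 FOXA1 and 17 FOXA1nhaa peaks and CYP51A1 15 and 12, while HNF4A has 1 in each window.

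CYP7A1, the rate-limiting enzyme of bile acid synthesis, had 2 FOXA1, 2 FOXA1nhaa and 1 FOXA1rraa peaks and no FOXA1dbd or HNF4A peak. One of its FOXA1 peaks, in an intron 1.42 kb from the start at chr8:59411107-59411501, had the third highest score near any P450 gene (521, rank 1234). No peak of a variant overlapped it. CYP7B1 (an oxysterol hydroxylase, in the longest window) had 4 FOXA1, 1 FOXA1dbd, 4 FOXA1nhaa and 1 HNF4A peaks. CYP27A1, the mitochondrial sterol 27-hydroxylase, had 4 FOXA1, 3 FOXA1nhaa, 2 FOXA1rraa and 3 HNF4A peaks. CYP8B1, which sets the ratio of cholic acid among bile acids, had 1 FOXA1, 1 FOXA1nhaa and 2 FOXA1rraa peaks. CYP46A1, the cholesterol hydroxylase of the brain, had no FOXA1 peak, 3 HNF4A peaks and 2 FOXA1rraa peaks, both of which were FOXA1rraa's own rows.

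Among the 6 enzymes of steroid hormone synthesis, FOXA1 and HNF4A peaks lay near 3 each (against 77.2% and 77.4% of all genes), FOXA1nhaa near 2 (33.3%, against 70.8%), and FOXA1dbd and FOXA1rraa near 1 each (16.7%, against 47.2% and 62.9%). The windows held 28.8 FOXA1 peaks per Mb, against 73.8. Of the 12 FOXA1 peaks of the group, 10 belonged to CYP19A1, the aromatase that makes oestrogens, which also had 2 FOXA1dbd, 5 FOXA1nhaa, 5 FOXA1rraa and 1 HNF4A peaks. Its 10 FOXA1 peaks, in a window of 171 kb, were spread from 10.3 kb upstream to 135 kb downstream of the canonical start. CYP11A1, which makes the first cut in cholesterol for all steroid hormones, showed the opposite order, with 1 FOXA1 peak, none of a variant and 5 HNF4A peaks. An HNF4A peak of CYP11A1 lay in an intron 1.55 kb from the start (fold enrichment 10.4, rank 5596), and the strongest lay 33.3 kb downstream in CCDC33 (fold enrichment 13.4, rank 2639). CYP17A1 had 1 FOXA1 and 2 HNF4A peaks, CYP21A2 a single FOXA1nhaa peak, and CYP11B1 and CYP11B2 none.

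Of the 3 retinoic acid hydroxylases, 2 had FOXA1 peaks (66.7%, against 77.2% of all genes) and 1 had HNF4A peaks (33.3%, against 77.4%). CYP26A1 and CYP26C1 lie side by side, and their overlapping windows together held 5 distinct FOXA1, 1 FOXA1nhaa and 3 FOXA1rraa peaks and none of FOXA1dbd or HNF4A. A FOXA1 peak with a forkhead core lay 2.38 kb upstream of CYP26C1 (score 213, rank 32604). CYP26B1 had 3 HNF4A peaks and no other. The HNF4A peak with the HNF4 core printed earlier lay 3.86 kb upstream of CYP26B1 (fold enrichment 5.63, rank 18015).

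All 3 vitamin D enzymes had FOXA1, FOXA1nhaa and HNF4A peaks (against 77.2%, 70.8% and 77.4% of all genes). FOXA1dbd and FOXA1rraa peaks lay near 2 each (66.7%, against 47.2% and 62.9%). With 3 genes such shares say little. Their windows held 74.1 FOXA1 peaks per Mb, close to the 73.8 of all protein-coding windows, and 55.6 HNF4A peaks per Mb against 20.1. CYP2R1, the liver 25-hydroxylase, had 7 FOXA1, 1 FOXA1dbd, 4 FOXA1nhaa, 2 FOXA1rraa and 2 HNF4A peaks. CYP24A1, which inactivates vitamin D, had 3 FOXA1, 2 FOXA1dbd, 2 FOXA1nhaa, 4 FOXA1rraa and 1 HNF4A peaks. The highest-ranked FOXA1rraa peak near any P450 gene lay 35.5 kb downstream of the CYP24A1 start at chr20:52754817-52755489 (score 500, rank 287), but this is a row of the FOXA1 list. CYP27B1, the renal enzyme that makes active vitamin D, had 6 HNF4A peaks, the most of any member, with 2 FOXA1 and 2 FOXA1nhaa peaks. Of these 6, 4 lay within 1 kb of the start of a neighbour, namely CDK4, MARCHF9, EEF1AKMT3 and TSFM. The peak at TSFM, at chr12:58176482-58177065, was the highest-ranked HNF4A peak in any P450 window (fold enrichment 26.9, rank 92).

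Of the 7 members with less defined substrates, FOXA1 peaks lay near 6 (85.7%, against 77.2% of all genes). Peaks of each other construct lay near 4 (57.1%), which is above the 47.2% of all genes for FOXA1dbd and below the 70.8% for FOXA1nhaa, the 62.9% for FOXA1rraa and the 77.4% for HNF4A. The windows held 38.4 FOXA1 peaks per Mb, against 73.8. CYP20A1, a so-called orphan P450, had 10 FOXA1, 2 FOXA1dbd, 9 FOXA1nhaa, 2 FOXA1rraa and 5 HNF4A peaks. CYP2S1 had 3 FOXA1, 2 FOXA1dbd, 2 FOXA1nhaa, 2 FOXA1rraa and 3 HNF4A peaks. Its highest FOXA1 peak was the AXL site shown earlier (score 751, rank 77), which was also the highest FOXA1dbd peak near a P450 gene (fold enrichment 10.7, rank 524) and was overlapped by peaks of every other construct. The FOXA1rraa peak at the AXL site is a row of the FOXA1nhaa list. CYP2W1 had 2 FOXA1, 2 FOXA1dbd, 1 FOXA1rraa and 2 HNF4A peaks. CYP27C1 had 1 peak in each list, but its FOXA1rraa peak is the row of the FOXA1nhaa list. CYP4X1 had a single FOXA1 peak, and CYP4Z1 2 FOXA1 and 1 FOXA1nhaa peaks.

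Few peaks of any construct lay at the starts of P450 genes. A single member, CYP39A1, had a FOXA1 peak within 1 kb of its annotated start (1.79% against 9.74% of all genes), and that peak also lies within 1 kb of the start of another gene. FOXA1nhaa had a peak at the starts of CYP7A1 and CYP51A1 (3.57% against 6.42%), and FOXA1dbd and FOXA1rraa at none (against 2.17% and 4.19%). HNF4A had a peak at the annotated starts of 6 members (10.7%, 5.00 to 21.5), against 41.4% of all genes. They were CYP2R1, CYP27A1, CYP4V2, CYP20A1, CYP46A1 and CYP2E1. For CYP2E1 the peak lies at an upstream annotated start, 6.89 kb before the start of the canonical transcript. With canonical starts 5 members remained, or 8.93% (3.87 to 19.3) against 44.0%, and FOXA1nhaa kept CYP7A1 alone (against 6.48%). FOXA1 kept CYP39A1 (against 9.70%), and FOXA1dbd and FOXA1rraa had none (against 2.06% and 4.12%).

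**Figure D4:**
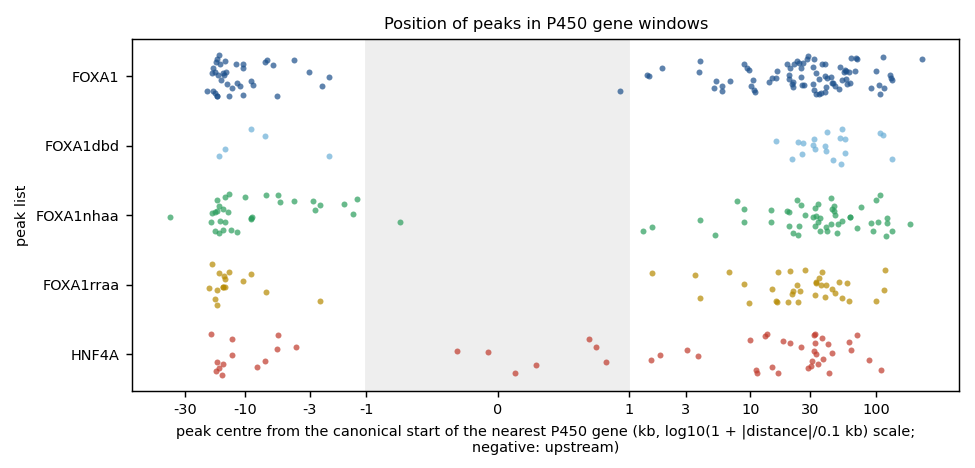
Distance of each peak centre in the P450 windows from the canonical start of the nearest P450 gene, in kb on a log10(1 + distance/0.1 kb) scale with upstream to the left, for each list; the grey band spans 1 kb on either side. Within the band lie 7 HNF4A peaks, 1 FOXA1 peak, 1 FOXA1nhaa peak and none of the other lists.

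The CYP2R1 start carried the strongest of these HNF4A peaks (fold enrichment 13.9, −log10 q-value 41.5, rank 2014). It was followed by CYP27A1 (10.7, 25.6 and rank 5171), CYP4V2 (9.56, 21.6 and rank 6758), CYP20A1 (8.79, 20.2 and rank 7580) and CYP46A1 (7.16, 12.8 and rank 14064). CYP27A1 and CYP4V2 had a second, weaker peak there. A further 6 HNF4A peaks lay at the starts of neighbours, among them COX19 near CYP2W1 and BORCS7-ASMT near CYP17A1. Thus 13 of the 53 HNF4A peaks in P450 windows, or 24.5% (14.9 to 37.6), were within 1 kb of any protein-coding start, against 30.2% in all protein-coding windows. FOXA1 had 1 of 119 there, or 0.840% against 1.24%.

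P450 starts also differ from other starts in base composition. The CpG observed/expected ratio in 1000 bp around the canonical start had a median of 0.213 in the members against 0.727 over all genes, and 18 members (32.1%) reached 0.6 against 66.5% of all genes. All 5 members with an HNF4A peak at their canonical start were among these 18. That is 27.8% (12.5 to 50.9) of them, against 60.3% of all genes with such a ratio. None of the 38 members below 0.6 had an HNF4A start peak, against 11.6% of all genes below it. The ratio and the start peaks therefore moved together, and within both classes the members were below the background; the part the ratio plays was not tested.

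**Figure D5:**
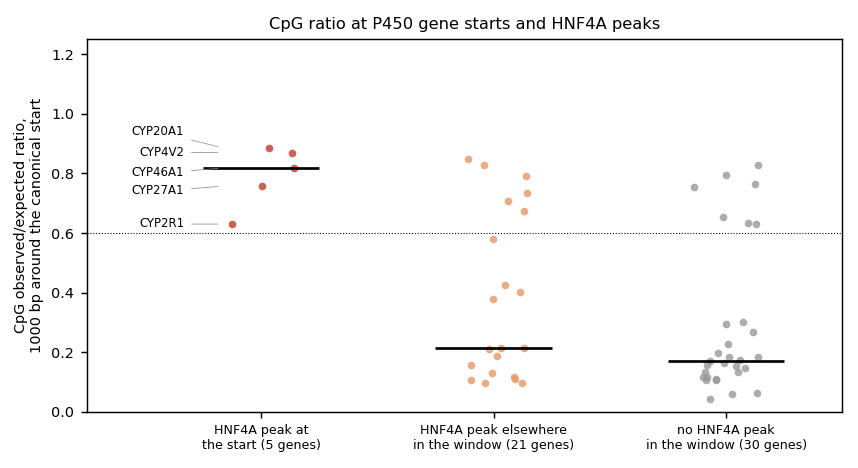
CpG observed/expected ratio in 1000 bp around the canonical start of each P450 gene, for the 5 genes with an HNF4A peak within 1 kb of that start (named), the 21 with an HNF4A peak elsewhere in the window and the 30 with none. Points are genes, black lines medians (0.818, 0.215 and 0.171) and the dotted line a ratio of 0.6.

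Many peaks counted for a P450 gene lie inside another protein-coding gene. This was so for 53 of 119 FOXA1 peaks (44.5%), 13 of 25 FOXA1dbd peaks (52.0%), 34 of 84 FOXA1nhaa peaks (40.5%), 25 of 51 FOXA1rraa peaks (49.0%) and 14 of 53 HNF4A peaks (26.4%). The same share was not computed over all protein-coding windows, so it is not shown to be particular to P450 genes. A peak in a window is a matter of position, and which gene it acts on was not measured.

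Of the 119 FOXA1 peaks in P450 windows, FOXA1nhaa peaks overlapped 42 (35.3%, 27.3 to 44.2), FOXA1rraa peaks 39 (32.8%, 25.0 to 41.6) and FOXA1dbd peaks 22 (18.5%, 12.5 to 26.4). Over the whole FOXA1 list the shares were 39.7%, 39.9% and 17.3%, all within these intervals. Without its rows from the FOXA1 list, FOXA1rraa overlapped 21 peaks (17.6%), and FOXA1nhaa overlapped all 21 of them as well. The own rows of FOXA1rraa overlapped 0 FOXA1 peaks. This 0 is no measure of FOXA1rraa binding, since shared sites carry rows of the other lists. HNF4A peaks overlapped 4 FOXA1 peaks (3.36%, 1.31 to 8.32), against 1.68% of the list, and these lay near CYP2S1, CYP24A1 and CYP51A1.

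A total of 51 FOXA1 peaks (42.9%, 34.3 to 51.8) were overlapped by no variant, against 41.5% of the list, and 9 (7.56%, 4.03 to 13.8) by all 3, against 8.21%. With the FOXA1 rows left out of the FOXA1rraa list, 67 (56.3%, 47.3 to 64.9) were overlapped by no variant, against 53.2% of the list. The number overlapped by all 3 was again 9, but this is no separate check. The FOXA1rraa rows left at FOXA1 peaks were all rows of the FOXA1nhaa list, so they add nothing to FOXA1nhaa there. The 9 were 2 near CYP51A1, 2 near CYP24A1 and 1 each near CYP2E1, CYP2S1, CYP27C1, CYP20A1 and CYP2U1. Their scores ran from 76.0 near CYP27C1 to 751 at the AXL site near CYP2S1. None of the 9 held a forkhead core in its central 200 bp, and 3 held an AP-1 core. FOXA1 rows give no summit, so their centre is the midpoint, and both counts depend on it. A FOXA1nhaa peak overlapping 1 of the 9, at chr7:91740106-91740837 near CYP51A1, held a forkhead core around its summit. FOXA1dbd peaks overlapping those near CYP2E1 and CYP20A1 held an AP-1 core around theirs. For FOXA1dbd the lists were compared the other way round. Of its 25 peaks, 23 (92.0%, 75.0 to 97.8) overlapped a FOXA1 peak, against 96.2% of the list. The 23 include both rows of the CYP3A43 pair, and some share coordinates or an edge with a FOXA1 row. In both directions the overlap is therefore not shown to come from separate peak calls.

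The share of peaks with a forkhead core near P450 genes differed from that of the whole list by less than its counting interval in each list. Cores lay in the central 200 bp of 21 of 119 FOXA1 peaks (17.6%, against 18.2% of the list), 7 of 25 FOXA1dbd peaks (28.0%, against 22.1%), 11 of 84 FOXA1nhaa peaks (13.1%, against 13.6%) and 13 of 51 FOXA1rraa peaks (25.5%, against 20%). The 7 FOXA1dbd peaks include both rows of the CYP3A43 pair, which cover 1 site. HNF4A peaks held a forkhead core in 2 of 53 (3.77%, against 3.25%). The same letters in reversed order were in 18.5% of the FOXA1 and 19% of the FOXA1nhaa peaks near P450 genes, no less often than the cores, and in 16% of FOXA1dbd, 15.7% of FOXA1rraa and 0% of HNF4A peaks. The HNF4 core was found in 1 HNF4A peak, that of CYP26B1 (1.89%, against 0.992%), and in no FOXA1 or variant peak. The AP-1 core was in 16.8% of FOXA1 peaks (against 15.0%), 5 of 25 FOXA1dbd peaks (against 28.8%), 15.5% of FOXA1nhaa (against 14.2%), 23.5% of FOXA1rraa (against 16.1%) and 18.9% of HNF4A peaks (against 23.6%). The CYP2W1 site printed earlier was the highest-ranked FOXA1dbd peak with a forkhead core (fold enrichment 5.76, rank 913), and its sequence holds TATTTAC on the minus strand at 2 places. The FOXA1 peak at that site had score 269, rank 18414 and the same start as the FOXA1dbd peak. That FOXA1dbd peak was the only 1 of the 25 near P450 genes whose name begins with WT_FOX. The FOXA1rraa peak there is a row of the FOXA1 list, so it adds no separate site. Of the 51 FOXA1rraa peaks in the shares above, 18 and 23 are likewise rows of the FOXA1 and FOXA1nhaa lists.

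Another 25 genes are redox partners of the P450 enzymes, receptors and factors that control them, or P450 enzymes under other symbols. FOXA1 peaks lay near 22 of them (88%, against 77.2% of all genes), FOXA1dbd near 12 (48%, against 47.2%), FOXA1nhaa and FOXA1rraa near 21 each (84%, against 70.8% and 62.9%) and HNF4A near 24 (96%, against 77.4%). Their windows were longer than those of the members, with a median of 107 kb against 61.9 kb. Of the 25, 19 were above the latter. The 7 redox partners, which pass electrons to the enzymes, had FOXA1, FOXA1rraa and HNF4A peaks in all 7 windows (against 77.2%, 62.9% and 77.4% of all genes). An HNF4A peak lay at the start of 6 of them (against 41.4%). POR, the reductase of the microsomal P450 enzymes, had 1 FOXA1 and 5 HNF4A peaks in a window of 128 kb, and FDX1, the mitochondrial electron carrier, had 12 FOXA1 and 2 HNF4A peaks. Among 16 receptors and factors that control P450 genes, FOXA1 peaks lay near 13 and HNF4A peaks near 15 (against 77.2% and 77.4% of all genes). AHR, the receptor that induces CYP1 genes, had 73 FOXA1 peaks in a window of 470 kb. TBXAS1 and PTGIS, P450 enzymes of the thromboxane and prostacyclin paths under other symbols, had 11 and 4 FOXA1 peaks. An HNF4A peak lay at the start of 14 of the 25 genes (56%), against 41.4% of all genes.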

How the data were processed

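HALO-tag ChIP-seq peak lists of 5 constructs in BJ fibroblasts were used as deposited, 1 per construct. The submitters' processing notes name Bowtie2 2.3.4.1, Picard, GATK 4.2.6.0, bedtools 2.27.1, MACS2 2.2.7.1 and deepTools 3.5.0, with no role. The sources used here do not say if libraries were pooled before peak calling. The deposited FOXA1 list gives a score per peak. The other deposited lists give the score, the fold enrichment (a ratio) and the −log10 p-value and q-value of the authors' caller. These are the authors' values for single peaks and were used only within a list. The file names give hg19. FOXA1 rows can be pieces of a peak, and their names then carry a suffix, which was removed before names were compared; 10 FOXA1 rows near members share a name. Repeated rows were counted once.

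Peaks overlapping a window by at least 1 bp were counted with Python 3.11.15, numpy 2.4.6, pandas 2.3.3 and pysam 0.24.0, and figures drawn with matplotlib 3.10.9. The background is the same count over 19229 autosomal protein-coding genes. Starts are annotated gene starts or those of the MANE Select (else Ensembl canonical) transcript, within 1 kb. Motifs were searched in 200 bp centred on the summit, or on the midpoint where a row does not hold its summit. Sequences printed are the highest-ranked peak per list with a forkhead or HNF4 core. Peaks with a forkhead core shared by the 4 FOXA1 lists were also sought, but by the midpoint of the FOXA1 row there was none. No sequence was taken from chromosome 8. Overlaps need 1 bp. The counting was tested on simulated data. No test was made, since each construct has 1 list, and depth is unknown. Genes described with peaks are those with a peak at their start, the 5 with most peaks per list and those holding the 3 highest-ranked peaks per list; others are given by their counts. The members and lists were chosen with earlier results of these data known. The down-sampled FOXA1 list and the 6 H2B samples were not used here. One P450 gene is counted in the totals but not reported by name here.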

Additional observations from a re-analysis of the deposited data

How the results depend on the processing

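In all 37 pairs of a list and an alternative setting, the share of members with a peak was below that of all genes. Against genes of like window length, a comparison added after seeing the data and not among the 37, FOXA1 in windows of 60 to 80 kb was above the background, with 83.3% against 81.5%. The number itself moved with the window and the length of the list. With gene bodies alone, 15, 6, 10, 9 and 16 members had a FOXA1, FOXA1dbd, FOXA1nhaa, FOXA1rraa and HNF4A peak. Over all genes the shares were 55.3%, 32.6%, 50.9%, 45.3% and 58.5%, and for the members 26.8%, 10.7%, 17.9%, 16.1% and 28.6%. With 5 kb on either side 23, 7, 15, 10 and 17 members had a peak. These were 41.1%, 12.5%, 26.8%, 17.9% and 30.4%, against 63.4%, 36.9%, 57.7%, 50.9% and 67.2% of all genes. With 50 kb FOXA1dbd reached 24 (42.9%, against 61.8%). With 20 kb around the gene start, FOXA1dbd had 6 (10.7%, against 30.5%) and HNF4A 17 (30.4%, against 66.8%). In the top 50% of each list, FOXA1 had 23 (41.1%, against 64.8%) and FOXA1dbd 9 (16.1%, against 33.2%). FOXA1nhaa and FOXA1rraa had 15 each (26.8%, against 58.8% and 50.6%). With 28831 highest-scoring peaks in each list, FOXA1 fell to 11 (19.6%, against 46.0% of all genes) and FOXA1nhaa to 8 (14.3%, against 46.8%). FOXA1rraa fell to 11 (19.6%, against 46.7%). FOXA1dbd had 15 (26.8%, against 47.2%) and HNF4A 23 (41.1%, against 71.8%). The order of the constructs in these counts thus depends on list length, and HNF4A was also the highest over all genes. The FOXA1rraa list without rows of the FOXA1 and FOXA1nhaa lists, a setting chosen after seeing the data, had 9 members, 10 peaks and an overlap of 0% of FOXA1 peaks. Without the FOXA1 rows alone it had 33 peaks and an overlap of 17.6%. The share of FOXA1 peaks overlapped by no variant was then 56.3%, against 42.9%, also a setting added after seeing the data. Leaving out shared rows also leaves out shared sites, so the FOXA1rraa values without them do not measure its binding.

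Distinct peaks in gene bodies numbered 53, 8, 36, 19 and 24 in the same order, and 61, 6, 43, 27 and 32 within 20 kb of gene starts. These settings cover less sequence. HNF4A peaks with centres within 200 bp matched 0.840% of FOXA1 peaks. In the central 100 bp, a smaller window, the AP-1 core was in 8.40% of FOXA1, 8% of FOXA1dbd, 11.8% of FOXA1rraa and 9.43% of HNF4A peaks, the forkhead core in 5.95% of FOXA1nhaa and the HNF4 core in 0% of HNF4A peaks. Reversed cores gave 4% for AP-1 in FOXA1dbd, 9.80% in FOXA1rraa and 0% in HNF4A, and 0% for the forkhead and HNF4 cores in HNF4A. The reversed forkhead core was in 18.5% of FOXA1 and 19% of FOXA1nhaa peaks, against 17.6% and 13.1% for the core itself, so these shares were no higher than those of the reversed letters. Canonical starts were also chosen after seeing the data.

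No paired analysis was possible because only 1 full list per construct was used and no result comes from a test. Leaving out a replicate was likewise not possible.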
